A study of Mus musculus with 9 samples.

Results

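Of the 32285 mouse genes counted, 10 genes of the Notch pathway were followed here, chosen by symbol: the receptors Notch1, Notch2 and Notch3, the ligands Jag1, Dll1 and Dll3, and the transcription factors Hes1, Hes5, Hey1 and Hey2. All 10 were found once in every library. Single-cell RNA sequencing (scRNA-seq, 10x Genomics chemistry that reads the 5′ end of transcripts) was made from the brains of 9 mice aged 6 to 8 weeks. The 5 tumor mice were NestinCreERT2;Fus1 animals with ZFTA-RELA ependymoma, in which a Cre recombinase driven by the Nestin promoter switches on the fusion gene in embryonic radial glia. The 4 control mice were NestinCreERT2;TdT animals, so Cre was carried by both groups and the controls also carried a red reporter. Cells were sorted as live after red cell (Ter119) staining, and each library came from 1 mouse, which is the replicate.

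Libraries held 14967680 to 178086164 unique molecular identifiers (UMIs, 1 per captured transcript), and 1577 to 5907 cells per mouse were kept. UMIs of the fusion sequence numbered 0 in each control and 5, 229, 6, 696 and 315 in tumors 1 to 5, so tumors 1 and 3 had few. Each kept cell was placed in a class by UMIs of listed marker genes (none of the 10 members among them). These UMIs had to exceed a level in the smallest barcodes, which stand for RNA floating free in the suspension. For each list the level was the lower of the library's own and the mean over all 9 libraries. A cell could thus pass a list without exceeding the free RNA of its own library. Of the kept cells, 9.83% to 31.3% passed no list. Levels are given as CPM, the UMIs of a gene scaled to 1000000 UMIs of the class in that mouse, where the class had at least 30 cells. Own markers led in each class, but other lists did not vanish: neuron markers summed to 3769 to 5991 CPM in the glial and endothelial control classes and to 77.2 to 2945 CPM in the glial, vascular and progenitor classes of the tumors. Of the gated cells, 1.64% to 3.39% passed 2 or more lists in the controls and 5.05%, 12.5%, 25.9%, 29.1% and 22.7% in tumors 1 to 5, and went to the class with the strongest signal, so classes of the tumors overlap more. Libraries with usable barcode lists shared 1 to 10 barcodes of kept cells per pair.

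Notch receptors are membrane proteins that are cut when a ligand on a neighbouring cell binds them. The freed intracellular part enters the nucleus, joins the DNA-binding protein RBPJ and switches on target genes, among them the Hes and Hey repressors. In the developing brain this signal keeps radial glia and neural stem cells undifferentiated, and Hes1 and Hes5 repress genes that drive neuronal differentiation. In blood vessels, Notch1 and Jag1 act between endothelial cells and the mural cells (pericytes and smooth muscle) around them, and Notch3 is the receptor typical of mural cells. Dll3 differs from the other ligands in that it mostly stays inside the cell and is thought to hold back signalling in the cell that makes it.

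The start regions of 2 of the targets are shown because they hold the RBPJ binding motif, searched as GTGGGAA on both strands. RefSeq start regions (GRCm38.p6, 250 bases before to 50 bases after the start of the gene) were found for 8 of the 10 genes, in 9 windows. The motif was present in 2 of them, Hes5 and Hey2, each with 2 matches, and in 6.38% of all 32851 such windows; 2 or more matches were present in 0.256% of them. The matches of Hes5 began at -226 and -83 from its start, and those of Hey2 at -207 and -4, the first of each pair reading on the opposite strand. The Hes5 window lies at chr4:154960673-154960972 on the plus strand and the Hey2 window at chr10:30842734-30843033 on the minus strand, both printed 5′ to 3′ along the gene, with the motif in capitals.

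Hes5: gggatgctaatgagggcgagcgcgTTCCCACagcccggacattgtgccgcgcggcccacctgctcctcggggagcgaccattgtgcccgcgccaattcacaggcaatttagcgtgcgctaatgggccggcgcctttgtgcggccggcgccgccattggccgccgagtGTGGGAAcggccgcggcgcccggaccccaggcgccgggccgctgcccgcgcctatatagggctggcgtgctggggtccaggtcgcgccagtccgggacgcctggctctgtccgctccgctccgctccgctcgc

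Hey2: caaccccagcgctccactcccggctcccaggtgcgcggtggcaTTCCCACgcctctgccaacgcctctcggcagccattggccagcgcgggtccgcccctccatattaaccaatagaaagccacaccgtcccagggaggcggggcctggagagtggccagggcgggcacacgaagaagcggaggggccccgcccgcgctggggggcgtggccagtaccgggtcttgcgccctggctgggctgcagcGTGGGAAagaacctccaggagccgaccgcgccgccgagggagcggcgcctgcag

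A match is a stretch of letters and not a measured binding site. Hes1 and Hey1 were not matched in the table of start regions.

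The first question was how the pathway differed between tumor-bearing and control brains when all kept cells of a mouse were summed. All members but Hey1 were higher in tumors: 9 of 10 passed the test, against a background of 61.9% of all genes, 32.4% higher and 29.5% lower, over 17612 genes tested, and the median log2 fold change of the members was 2.22 against 0.04 over all genes. In such sums, a different mix of cells and a different level per cell cannot be told apart. Progenitor-gated cells numbered 0 to 6 in the controls and 45, 1281, 151, 3262 and 898 in tumors 1 to 5, while neuron-gated cells numbered 3026 to 4743 in the controls and 20 to 857 in the tumors.

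Among the receptors, Notch1 was at 9.19, 11.6, 13.3 and 8.87 CPM in controls 1 to 4 and at 59.0, 123, 95.6, 153 and 117 CPM in tumors 1 to 5. The groups did not overlap, and the mean was 10.2 times higher in tumors (log2 fold change 3.67 ± 0.39 (SE), edgeR adjusted p = 1.6e-04). Notch2 was at 5.02, 6.03, 6.28 and 4.94 CPM in the controls and 25.9, 19.3, 49.6, 24.1 and 23.5 CPM in the tumors (log2 fold change 2.56 ± 0.25 (SE), edgeR adjusted p = 1.3e-04). Notch3 was at 2.01, 2.36, 3.24 and 2.23 CPM in the controls and 8.11, 9.05, 26.0, 8.58 and 10.5 CPM in the tumors (log2 fold change 2.54 ± 0.37 (SE), edgeR adjusted p = 5.0e-04). Tumor 3 was highest for both Notch2 and Notch3, and neither gene overlapped between the groups.

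The ligand Jag1 was at 3.63, 3.34, 4.13 and 3.44 CPM in the controls and 11.3, 9.82, 20.9, 9.98 and 15.9 CPM in the tumors (log2 fold change 2.13 ± 0.25 (SE), edgeR adjusted p = 2.3e-04). Dll3 rose from 3.01, 2.78, 1.59 and 2.13 CPM to 3.21, 10.1, 26.7, 13.5 and 6.01 CPM, with tumor 1 just above the highest control (log2 fold change 2.56 ± 0.56 (SE), edgeR adjusted p = 0.0036). Dll1 was at 4.09, 5.24, 4.13 and 3.63 CPM in the controls and 3.38, 6.57, 14.2, 14.1 and 16.0 CPM in the tumors, where tumor 1 lay below every control (log2 fold change 1.63 ± 0.46 (SE), edgeR adjusted p = 0.0115). In an exact permutation test over the 9 mice, the two-sided p was 0.0794 for Dll1 and 0.0159 for Jag1, the latter being the smallest p that 4 against 5 mice allow.

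Of the targets, Hes1 was at 14.1, 14.9, 16.9 and 12.6 CPM in the controls and 25.7, 59.3, 61.5, 69.9 and 79.8 CPM in the tumors, with no overlap (log2 fold change 2.32 ± 0.36 (SE), edgeR adjusted p = 6.9e-04). Hes5 was at 18.3, 22.1, 26.6 and 27.7 CPM and 24.5, 43.5, 70.9, 62.4 and 171 CPM, with tumor 1 within the range of the controls (log2 fold change 1.94 ± 0.52 (SE), edgeR adjusted p = 0.00961). Hey2 was at 2.47, 2.69, 2.67 and 2.67 CPM and 5.91, 4.38, 14.4, 3.26 and 5.88 CPM (log2 fold change 1.53 ± 0.36 (SE), edgeR adjusted p = 0.00523). Hey1 was the member that did not pass: it was at 16.8, 17.2, 15.1 and 17.4 CPM in the controls and at 11.3, 13.8, 23.0, 38.3 and 7.06 CPM in the tumors, so that tumors lay on both sides of the controls (log2 fold change 0.48 ± 0.46 (SE), edgeR adjusted p = 0.389).

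**Figure D1:**
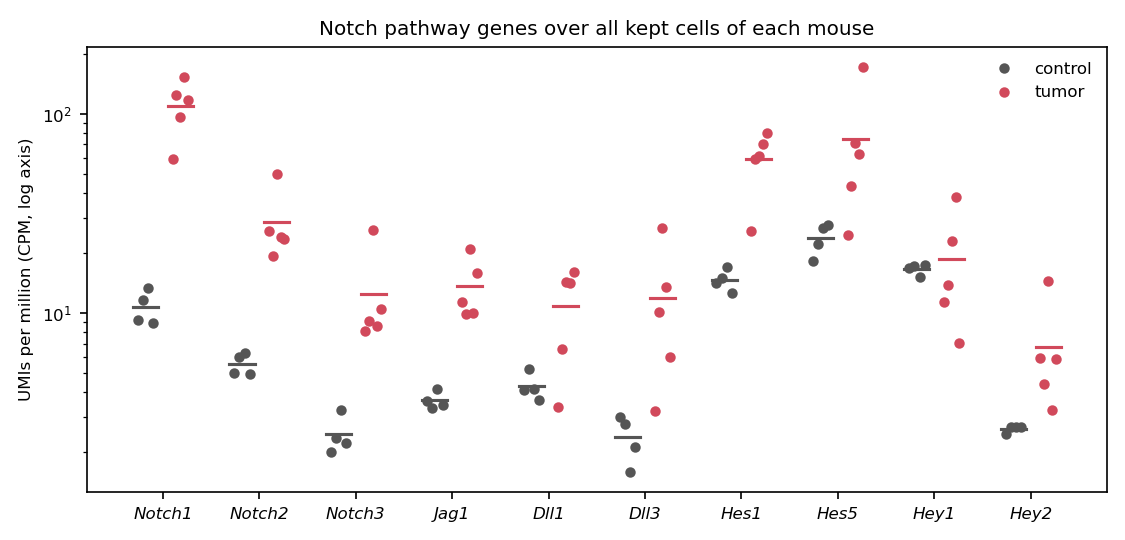
Level of each of the 10 genes over all kept cells, in CPM on a log axis, with 1 point per mouse (4 controls in grey, 5 tumors in red) and a line at the group mean. The tumor points lie above every control for 7 genes, and for Dll1, Hes5 and Hey1 the groups overlap.

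The next question was which cells of the tumors carried each gene. Classes with at least 30 cells in 3 or more tumors were compared with the other gated cells of the same mouse, with the mouse as a block in the fit, and counts of members were read against the share of all genes called in that comparison. Progenitor-gated cells had 4 members higher and 1 lower (background 39.4% of all genes, 16.2% higher and 23.1% lower). Endothelial-gated cells had 4 higher and 2 lower (background 33.9% of all genes, 16.8% higher and 17.2% lower) of 9 tested. Mural-gated cells had 4 higher and 2 lower (background 16.1% of all genes, 7.95% higher and 8.16% lower). Astrocyte-gated cells had 4 higher and 0 lower of 8 tested (background 26.5% of all genes, 11.9% higher and 14.6% lower). Oligodendrocyte precursor-gated cells had 1 higher and 2 lower (background 16.0% of all genes, 6.50% higher and 9.53% lower). Oligodendrocyte-gated cells had 0 higher and 6 lower (background 26.0% of all genes, 9.88% higher and 16.1% lower). Microglia- or macrophage-gated cells had 1 higher and 8 lower (background 52.0% of all genes, 23.8% higher and 28.3% lower). Neuron-gated cells had 0 higher and 8 lower (background 59.7% of all genes, 27.6% higher and 32.2% lower). Erythroid-gated cells, tested in tumors 2, 3 and 5, had 0 of 10 members called by edgeR (background 1.70% of all genes, 0.266% higher and 1.43% lower), with 0 at an unadjusted p under 0.05 and 0 called by DESeq2. The backgrounds of the microglia or macrophage and neuron comparisons were the highest of these 9, so counts there say less about the members. Without the mouse as a block, the calls of Notch1, Notch3, Dll3 and Hes1 in progenitor-gated cells (adjusted p = 0.0563, 0.0717, 0.172 and 0.192), of Notch1, Notch2 and Hey1 in astrocyte-gated cells (0.283, 0.093 and 0.351), of Notch1, Hes5 and Hey1 in endothelial-gated cells (0.153, 0.0537 and 0.0725) and of Hes5 in mural-gated cells (0.21) were lost. So were those of Notch2 and Notch3 in oligodendrocyte precursor-gated cells (0.133 and 0.0837) and of Notch2, Notch3, Dll3 and Hes5 in oligodendrocyte-gated cells (0.153, 0.0581, 0.0676 and 0.0688). The calls of Notch1, Hes1 and Hey2 in microglia- or macrophage-gated cells (0.105, 0.353 and 0.103) and of Jag1 in neuron-gated cells (0.0886) were lost too. Fits without the block took the class and the other gated cells as independent, though both come from the same mouse.

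Notch1, the receptor with the widest expression, was at similar levels in 5 classes. Its means were 165 ± 54.0 CPM (SD, n = 4) in mural-gated cells, 153 ± 46.1 CPM (SD, n = 5) in astrocyte-gated cells, 146 ± 28.5 CPM (SD, n = 5) in endothelial-gated cells, 137 ± 27.6 CPM (SD, n = 5) in progenitor-gated cells and 125 ± 28.0 CPM (SD, n = 4) in oligodendrocyte precursor-gated cells. The ranges of these neighbours overlapped, each gap being under 1 SD. A gap without overlap followed, to 48.9 ± 8.25 CPM (SD, n = 5) in microglia- or macrophage-gated cells, with neuron-gated cells at 10.3 to 65.3 CPM and oligodendrocyte-gated cells at 10.8 to 49.1 CPM below. In progenitor-gated cells, tumors 1 to 5 had 99.3, 162, 120.5, 164 and 141 CPM, from 24, 1390, 108, 4323 and 706 UMIs (log2 fold change 0.78 ± 0.15 (SE), edgeR adjusted p = 0.00388 against the other gated cells). The astrocyte call (log2 fold change 0.73 ± 0.25 (SE), edgeR adjusted p = 0.0386) was lost without tumor 1 or tumor 3 (adjusted p = 0.138 and 0.149), with DESeq2 (0.0558) and with no filter on low counts (0.0628), and the endothelial call (log2 fold change 0.83 ± 0.29 (SE), edgeR adjusted p = 0.0459) without tumor 1, 3 or 5 (adjusted p = 0.161, 0.161 and 0.0634), with no filter on low counts (0.0917) and with at least 500 genes per barcode (0.0553).

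Notch2 was ordered differently. It was highest in astrocyte-gated cells, with 48.7, 39.5, 95.8, 14.9 and 42.8 CPM in tumors 1 to 5 (log2 fold change 1.14 ± 0.29 (SE), edgeR adjusted p = 0.00811), followed by microglia- or macrophage-gated cells, with 38.1, 18.99, 78.3, 15.2 and 26.0 CPM (log2 fold change 0.95 ± 0.29 (SE), edgeR adjusted p = 0.02). Tumor 3 was highest in both classes, and the microglia call was lost without it (adjusted p = 0.08) and without tumor 1 or 5 (adjusted p = 0.0851 and 0.0504). Progenitor-gated cells had 23.1 to 40.2 CPM, and their difference from the others did not pass (log2 fold change 0.55 ± 0.20 (SE), edgeR adjusted p = 0.0604). Endothelial-gated cells were the lowest class, with 8.83, 6.70, 9.73, 7.30 and 7.19 CPM, and fell below the other cells in every alternative run (log2 fold change -1.53 ± 0.29 (SE), edgeR adjusted p = 0.0023). In Notch2, neighbouring classes overlapped along the whole order.

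Notch3 was highest in mural-gated cells. Mural-gated cells of tumors 2 to 5 had 107, 761, 199.7 and 169 CPM, from 62, 158, 94 and 22 UMIs, while the highest value of any other class was 35.9 CPM, in the endothelial-gated cells of tumor 5 (mural against other gated cells, log2 fold change 5.39 ± 0.62 (SE), edgeR adjusted p = 2.8e-04). Tumor 3 stood apart at the top. The share of free RNA in mural-gated cells of tumors 2 to 5, estimated by reading every UMI of the neuron list as free, was 32.1%, 15.0%, 100% and 35.1%. Any such UMIs made by the cells themselves would raise this estimate, which was 11.9% in endothelial-gated cells of tumor 4. The Notch3 call held without tumor 4. The mural marker list was also highest in tumor 3, at 11375, 38261, 14887 and 8068 CPM in tumors 2 to 5. Its lowest value was in tumor 5, while that of Notch3 was in tumor 2. The endothelial list in the same cells was at 2489, 554, 2040 and 2889 CPM, and the part of these lists in the spread of Notch3 was not tested. Endothelial-gated cells had 17.7, 10.7, 1.22, 8.34 and 35.9 CPM of Notch3 in tumors 1 to 5, beside mural list sums of 859, 642, 35.3, 247 and 2084 CPM in the same cells, and both measures put the 5 tumors in the same order, a relation that was not tested. Notch3 was lower in progenitor-gated cells than in the others (log2 fold change -1.11 ± 0.29 (SE), edgeR adjusted p = 0.0159), a call lost without tumor 2 or 3 (adjusted p = 0.056 and 0.0538).

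Jag1, a ligand of the vessel wall, was highest in mural-gated cells, with 26.0, 135, 61.6 and 92.2 CPM in tumors 2 to 5 (log2 fold change 2.57 ± 0.32 (SE), edgeR adjusted p = 4.4e-04). Endothelial-gated cells of tumors 1 to 5 had 22.1, 24.1, 79.1, 29.2 and 55.7 CPM (log2 fold change 2.08 ± 0.26 (SE), edgeR adjusted p = 1.9e-04). Both calls held in every alternative run, and the ranges of the mural and endothelial classes overlapped. In progenitor-gated cells Jag1 was at 37.2, 8.02, 14.5, 7.73 and 14.7 CPM, the highest value resting on 9 UMIs in tumor 1, and did not differ detectably from the other cells (log2 fold change -0.22 ± 0.37 (SE), edgeR adjusted p = 0.681).

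Among the 9 classes compared, Dll1 and Dll3 had their highest means in oligodendrocyte precursor-gated and then progenitor-gated cells. Dll3 was highest in oligodendrocyte precursor-gated cells, with 28.1, 199, 39.6 and 27.0 CPM in tumors 2 to 5 from 9, 53, 112 and 7 UMIs (log2 fold change 2.17 ± 0.33 (SE), edgeR adjusted p = 8.2e-04), and tumor 3 was the highest again. The estimated share of free RNA in these precursor-gated cells was 19.2% and 18.6% in tumors 2 and 3, 77.5% in tumor 4 and between these in tumor 5, and its part was not tested. Progenitor-gated cells of tumors 1 to 5 had 16.5, 16.5, 70.3, 12.5 and 7.57 CPM (log2 fold change 1.27 ± 0.44 (SE), edgeR adjusted p = 0.0476), and this call was lost without tumor 1, 2, 3 or 5 (adjusted p = 0.0873, 0.173, 0.145 and 0.0542). Astrocyte-gated cells had 0 UMIs of Dll3 in all 5 tumors, which allows up to 3.18 CPM in tumor 1, with the most UMIs in this class, and up to 13.2 CPM in tumor 2, with the fewest. Mural-gated cells had 1 UMI over 4 tumors (tumor 1 had only 16 such cells and is left out for this class).

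Dll1 was at 3.12, 52.6, 33.2 and 23.1 CPM in oligodendrocyte precursor-gated cells of tumors 2 to 5 (log2 fold change 1.15 ± 0.38 (SE), edgeR adjusted p = 0.0592) and at 33.1, 9.42, 32.4, 13.4 and 17.7 CPM in progenitor-gated cells of tumors 1 to 5 (log2 fold change 1.38 ± 0.52 (SE), edgeR adjusted p = 0.0617). Neither difference from the other gated cells passed the test. Microglia- or macrophage-gated cells, at 0 to 4.49 CPM, and neuron-gated cells, at 0 to 5.44 CPM, were lower than the others (log2 fold change -1.92 ± 0.35 (SE), edgeR adjusted p = 0.00168, and log2 fold change -2.62 ± 0.58 (SE), edgeR adjusted p = 0.003).

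Hes1, a repressor induced by Notch in many tissues, was highest in the vessel wall. Endothelial-gated cells had 102, 159, 172, 128 and 176 CPM in tumors 1 to 5 (log2 fold change 1.83 ± 0.26 (SE), edgeR adjusted p = 3.7e-04), and mural-gated cells 140.3, 173, 121 and 84.5 CPM in tumors 2 to 5 (log2 fold change 1.07 ± 0.29 (SE), edgeR adjusted p = 0.0323). The endothelial call held in every alternative run, while the mural call was lost without tumor 2 or 4 (adjusted p = 0.198 and 0.0699). Progenitor-gated cells had 24.8, 57.1, 106, 78.8 and 108 CPM (log2 fold change 0.62 ± 0.22 (SE), edgeR adjusted p = 0.0496), a call lost without tumor 3, 4 or 5 (adjusted p = 0.109, 0.11 and 0.189) and, with an adjusted p of 0.0502 to 0.0781, under each of 5 other settings of the filters and the gate. Oligodendrocyte-gated cells were lowest, with 2, 0, 3 and 3 UMIs in tumors 1 to 4 (log2 fold change -4.03 ± 0.56 (SE), edgeR adjusted p = 6.5e-04).

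Hes5, the repressor typical of neural stem cells and astrocytes, was led by other classes. Progenitor-gated cells of tumors 1 to 5 had 82.7, 64.5, 254, 74.4 and 236 CPM (log2 fold change 2.01 ± 0.18 (SE), edgeR adjusted p = 5.8e-05), and this call was kept without each tumor in turn. Astrocyte-gated cells had 77.3, 61.5, 255, 26.1 and 190.1 CPM, and did not pass the test (log2 fold change 1.13 ± 0.41 (SE), edgeR adjusted p = 0.0529). Endothelial-gated cells, at 4.42, 8.04, 6.08, 5.21 and 53.9 CPM, were lower than the others (log2 fold change -2.40 ± 0.35 (SE), edgeR adjusted p = 5.0e-04). In tumor 5 Hes5 stood above the other tumors in endothelial-gated, mural-gated and neuron-gated cells, at 53.9, 99.9 and 68.9 CPM, and the astrocyte list in mural-gated cells summed to 370 to 2328 CPM in tumors 2 to 5, highest in tumor 5; the part of such shared RNA was not tested.

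Hey1 had its highest mean in endothelial-gated cells and its next highest in astrocyte-gated cells, at 48.1 ± 48.8 and 37.0 ± 33.9 CPM (SD, n = 5 each), with ranges that overlapped and a gap under 1 SD, so the order of these 2 classes was not set. Endothelial-gated cells were above astrocyte-gated cells in 2 of 5 tumors, tumors 3 and 5. Hey1 was at 13.2, 20.1, 133, 45.9 and 28.8 CPM in endothelial-gated cells of tumors 1 to 5 (log2 fold change 1.74 ± 0.58 (SE), edgeR adjusted p = 0.0394), with tumor 3 far above the others, and the call was lost without tumor 1, 3 or 5 (adjusted p = 0.0683, 0.0781 and 0.112), with no doublets removed (0.0514) and with the gate against own free RNA (0.0586). Without tumor 3 the log2 fold change fell to 0.95. Astrocyte-gated cells had 14.8, 30.7, 23.9, 96.8 and 18.9 CPM of Hey1 (log2 fold change 0.97 ± 0.29 (SE), edgeR adjusted p = 0.0204), with tumor 4 far above the others, a call lost without tumor 4 or 5 (adjusted p = 0.0718 and 0.0904). In mural-gated cells Hey1 was at 4.81 to 12.1 CPM and the difference from the others did not pass (log2 fold change -1.03 ± 0.52 (SE), edgeR adjusted p = 0.229). Hey2 was highest in mural-gated cells, at 22.5, 149, 21.2 and 23.1 CPM in tumors 2 to 5 (log2 fold change 3.10 ± 0.45 (SE), edgeR adjusted p = 0.00111), and then in astrocyte-gated cells, at 13.8, 26.4, 31.9, 14.9 and 17.6 CPM in tumors 1 to 5 (log2 fold change 1.94 ± 0.35 (SE), edgeR adjusted p = 6.7e-04). Both Hey2 calls held in every alternative run. Endothelial-gated cells had 1.04 to 14.4 CPM of Hey2, which did not differ detectably from the others (log2 fold change -0.30 ± 0.57 (SE), edgeR adjusted p = 0.731).

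**Figure D2:**
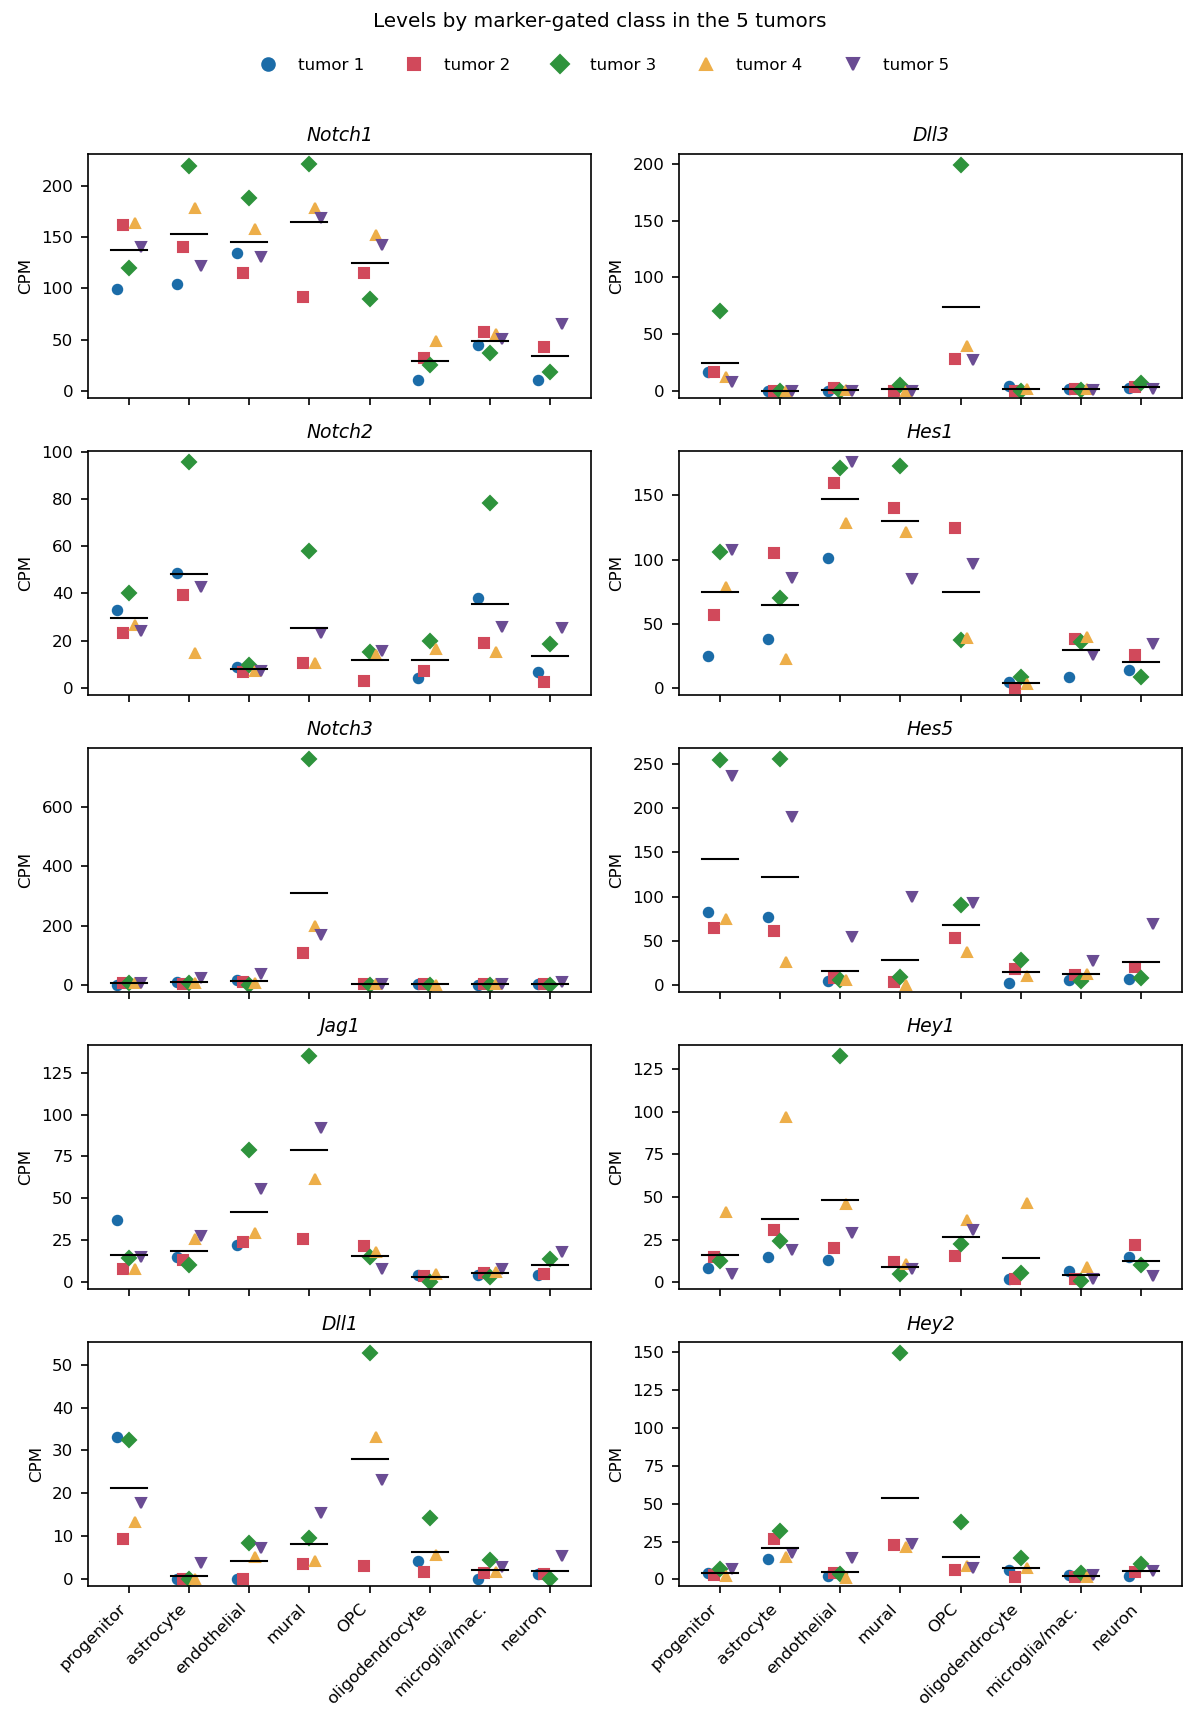
Level of each gene (CPM, linear axes that differ between panels) in 8 marker-gated classes of the 5 tumors; symbols mark tumors with at least 30 cells of the class and lines mark the mean (OPC, oligodendrocyte precursor; mac., macrophage). Notch3 and Hey2 peak in mural-gated cells, Dll3 in oligodendrocyte precursor-gated cells and Hes5 in progenitor- and astrocyte-gated cells, and tumor 3 is the top point of the leading class for every gene except Hes1.

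Progenitor-gated cells carried 200 of 229, 4 of 6 and 578 of 696 fusion UMIs in tumors 2 to 4, but 0 of 5 in tumor 1 and 119 of 315 in tumor 5. Luciferase, which the paper describes on the fusion allele, had 0 UMIs in every control. Progenitor-gated cells carried 16 of 81, 990 of 1247, 69 of 131, 8755 of 10752 and 479 of 1177 luciferase UMIs in tumors 1 to 5. Within this class the tumors were close on some members and apart on others. Notch1 spanned only 99.3 to 164 CPM and Notch2 23.1 to 40.2 CPM. Hes5 fell into high and low tumors, with tumors 3 and 5 at 254 and 236 CPM and the other 3 at 64.5 to 82.7 CPM. Hey1 was highest in tumor 4, at 40.9 CPM (95% Poisson interval 38.5 to 43.5), and lowest in tumor 5, at 4.58 CPM (2.91 to 6.88), so their counting intervals lay far apart. These intervals cover counting error only, and each is 1 mouse. The share of UMIs in progenitor-gated cells put down to free RNA, estimated from the neuron list, was 48.3%, 15.8%, 26.2%, 72.5% and 63.3% in tumors 1 to 5, and its part in these differences was not tested. In tumor 4 the same estimate was 11.9% in endothelial-gated and 19.2% in microglia- or macrophage-gated cells. It reads every UMI of the neuron list as free RNA, and any that progenitor-gated cells made themselves would raise it. The gate joins a neural progenitor list and a list led by Igf2 and H19. When the lists were split, the other gated cells of each fit included the cells of the other progenitor list. In the fit of the neural list these were 1157 cells in tumor 2 and 2703 in tumor 4. The split fits thus do not set a list against non-progenitor cells alone. Tumor 1, with 19 cells of the neural list and 26 of the Igf2 and H19 list, had under 30 of each. Both split fits therefore used tumors 2 to 5, and the loss of tumor 1 is mixed with the split. In the joined fit the Dll3 call was lost without tumor 1 (adjusted p = 0.0873). With cells of the neural progenitor list alone, the difference from the other gated cells no longer passed for Notch1 (log2 fold change 0.04, adjusted p = 0.95) or Hes5 (0.98, adjusted p = 0.0612), nor for Notch3 (-0.51, adjusted p = 0.677), and that of Hes1 turned to -0.05 (adjusted p = 0.978). With cells of the Igf2 and H19 list alone, Dll3 fell to 0.23 (adjusted p = 0.789) and Hes1, at 0.85, did not pass (adjusted p = 0.067).

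Within single cells, thinned to 2000 UMIs each so that depth was equal, Notch1 was detected in 9.52% to 28.4% of progenitor-gated cells per tumor and in 0.885% to 10.1% of oligodendrocyte-gated cells, the class set beside them for the level that free RNA gives. This is not a full background for progenitor-gated cells, whose estimated share of free RNA was higher in tumors 1 and 4, at 48.3% and 72.5% against 19.7% and 32.0%, and alike in tumor 2, at 15.8% against 15.7%. Hes5 was detected in 9.41% to 32.3% and 0.885% to 2.03%. Thinning left out 44 of 5637 progenitor-gated cells and 6 of 389 oligodendrocyte-gated cells, the latter of tumors 1, 2 and 4, since tumor 3 had under 30 deep enough and tumor 5 had 29 in all. The progenitor ranges cover tumors 1 to 5. Tumors 3 and 5, with the highest Hes5 in progenitor-gated cells, thus had no oligodendrocyte-gated cells set beside them. Without thinning, at median depths of 3225 to 7284 UMIs per progenitor-gated cell and 1866 to 6561 UMIs per oligodendrocyte-gated cell of tumors 1 to 4, the shares for Notch1 were 37.1% to 67.4% and 2.54% to 26.4%, and those for Hes5 were 20.0% to 52.8% and 0.847% to 7.94%.

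**Figure D3:**
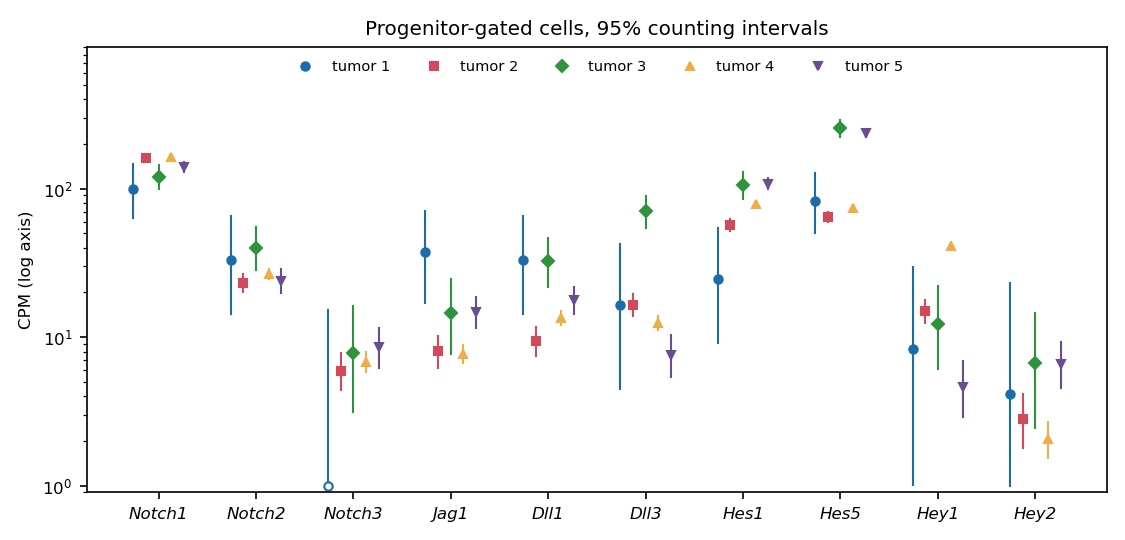
Level of each gene in progenitor-gated cells of tumors 1 to 5 (CPM, log axis), with 95% Poisson intervals that cover counting error only; the open symbol is a count of 0 drawn at the axis floor of 1 CPM. Hes5 is high in tumors 3 and 5, Hey1 is high in tumor 4 and Dll3 is high in tumor 3, with intervals apart from those of the tumors outside each named group.

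Cycling and non-cycling progenitor-gated cells were compared within the 3 tumors that had at least 30 of each (tumors 2, 4 and 5, with 236, 560 and 155 cycling cells). The receptors did not differ detectably, while 4 members were lower in cycling cells and 0 were higher (background 25.3% of all genes, 13.9% higher and 11.3% lower). Dll3 was at 18.6, 15.0 and 8.09 CPM in non-cycling and 10.4, 3.98 and 6.11 CPM in cycling cells of tumors 2, 4 and 5 (log2 fold change -1.19 ± 0.26 (SE), edgeR adjusted p = 0.00628). Dll1 was at 9.85, 15.3 and 19.7 CPM and 8.17, 6.97 and 12.2 CPM (log2 fold change -0.72 ± 0.21 (SE), edgeR adjusted p = 0.0277). Hes5 was at 72.7, 81.9 and 253 CPM and 40.8, 49.1 and 186 CPM (log2 fold change -0.59 ± 0.11 (SE), edgeR adjusted p = 0.0019), and Hey1 at 17.2, 44.1 and 5.12 CPM and 8.62, 30.4 and 3.05 CPM (log2 fold change -0.56 ± 0.17 (SE), edgeR adjusted p = 0.032).

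All 4 were lower in cycling cells in 3 of 3 tumors. Notch1 was at 155, 164 and 137 CPM in non-cycling and 181, 163 and 152 CPM in cycling cells (log2 fold change 0.18 ± 0.09 (SE), edgeR adjusted p = 0.156), and Hes1 at 59.6, 75.3 and 109 CPM and 49.9, 90.4 and 105 CPM (log2 fold change 0.09 ± 0.13 (SE), edgeR adjusted p = 0.661). Of the 4 calls, that of Hes5 was the one that held without tumor 4 and with DESeq2, and with the tumor left out of the fit as a block it too was lost (adjusted p = 0.953). The fit without the block took both sums of a tumor as independent, though they come from the same mouse. Without tumor 4 the adjusted p was 0.361 for Dll1, 0.139 for Dll3 and 0.0634 for Hey1, with DESeq2 it was 0.192, 0.0517 and 0.168, and without tumor 2 the Hey1 call was also lost (adjusted p = 0.188).

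**Figure D4:**
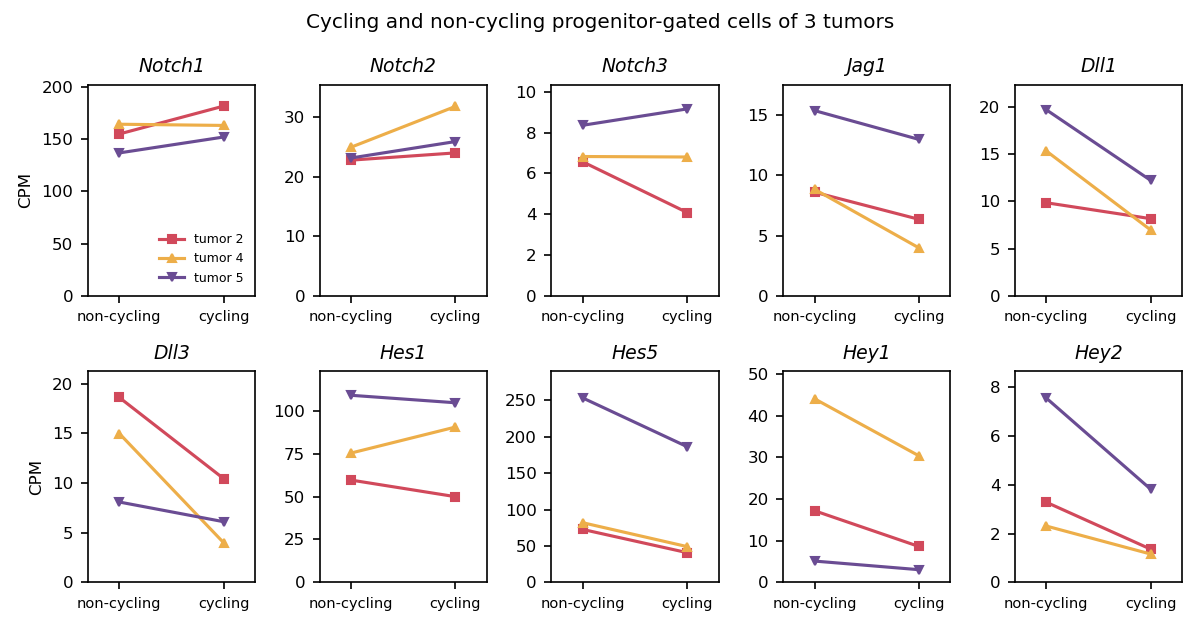
Level of each gene (CPM, axes from 0) in non-cycling and cycling progenitor-gated cells, joined by a line for each of tumors 2, 4 and 5. The lines of Dll1, Dll3, Hes5, Hey1, Jag1 and Hey2 fall in every tumor, of which the first 4 passed the test, and those of Notch2 rise without passing it.

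Since Notch ligands act on neighbours and Hes proteins can repress ligand genes, it was asked whether Dll1 or Dll3 and Hes1 or Hes5 were found in the same progenitor-gated cells. After thinning to 2000 UMIs, a Dll1 or Dll3 UMI was present in 6.14% of the cells with a Hes1 or Hes5 UMI and 3.92% of those without in tumor 2, in 6.25% and 6.98% in tumor 3, in 3.95% and 5.22% in tumor 4 and in 6.13% and 5.76% in tumor 5. Tumor 1 had only 7 cells with a Hes UMI and was left out. The mean difference was 0.149 ± 1.55 percentage points (SD, n = 4), higher in 2 of 4 tumors (exact two-sided sign-flip permutation test p = 0.875, where 4 tumors allow none below 0.125). No direction was detectable at this depth.

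In control brains the same classes could be read where they had at least 30 cells. Astrocyte-gated cells had 7 members higher than the other gated cells and 0 lower (background 31.9% of all genes, 12.5% higher and 19.4% lower): Notch1 was at 94.9, 94.9, 97.7 and 94.9 CPM (log2 fold change 3.58 ± 0.25 (SE), edgeR adjusted p = 4.7e-43) and Hes5 at 244, 123, 156 and 197 CPM in controls 1 to 4 (log2 fold change 3.12 ± 0.18 (SE), edgeR adjusted p = 1.0e-62). These very small p-values rest on 4 mice and on a spread pooled over all genes. Astrocyte-gated cells of controls 1 to 4 numbered 34, 69, 90 and 58. Notch1 had 37 UMIs in those of control 3, the highest value, so counting error exceeds the spread of its 4 values. Jag1, Notch2 and Hes1 were higher with them (log2 fold changes 2.52, 2.48 and 1.79), as did Hey2 and Notch3, whose calls were lost without single libraries. The Hey2 call was lost without control 2 or 3 (adjusted p = 0.0536 and 0.222), and the Notch3 call without control 1, 3 or 4 (adjusted p = 0.0602, 0.159 and 0.286) and with DESeq2 (0.0558). With a mitochondrial share under 10% Notch3 fell to 0.30 (adjusted p = 0.954) and the Hey2 call was also lost (2.56, adjusted p = 0.0669). Microglia- or macrophage-gated cells had 2 members higher (background 55.1% of all genes, 23.7% higher and 31.4% lower), Notch2 at 29.3, 20.7, 41.0 and 30.4 CPM (log2 fold change 2.86 ± 0.31 (SE), edgeR adjusted p = 1.2e-18) and Notch1 at 35.8, 30.3, 30.7 and 30.4 CPM (log2 fold change 1.83 ± 0.27 (SE), edgeR adjusted p = 8.2e-11). Neuron-gated cells had 7 members lower (background 70.0% of all genes, 36.3% higher and 33.6% lower), and oligodendrocyte-gated cells had 0 called by edgeR (background 32.7% of all genes, 12.7% higher and 20.0% lower), with 0 members at an unadjusted p under 0.05 and 0 called by DESeq2.

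Tumor and control cells of 1 class were then compared. The share of free RNA moved with the groups: estimated from the neuron list, 57.5% to 66.7% of the UMIs of control astrocyte-gated cells were put down to free RNA and 28.5% to 45.9% of those in tumors, and for microglia- or macrophage-gated cells 60.5% to 69.6% and 7.83% to 29.8%. For endothelial-gated cells it was 46.9% to 75.6% in the controls and 8.76% to 24.7% in the tumors. For several members in these 3 classes values are given as measured and after subtraction of that share of the profile of the smallest barcodes, an alternative added after the data were seen. What was left was then divided by the share of UMIs not put down to free RNA. The division raises values more where the free RNA share is higher, as in the controls. Values after subtraction hold both steps. In microglia- or macrophage-gated cells 2 of 4 members tested were higher in tumors (background 40.6% of all genes, 19.1% higher and 21.5% lower). Notch1 was at 35.8, 30.3, 30.7 and 30.4 CPM in the controls and 44.8, 57.3, 36.9, 55.2 and 50.5 CPM in the tumors (log2 fold change 1.07 ± 0.25 (SE), edgeR adjusted p = 0.00425), but after subtraction at 86.9, 75.1, 66.5 and 66.8 CPM and 46.2, 42.8, 33.5, 13.4 and 26.3 CPM, the controls now above the tumors (exact two-sided permutation p = 0.0159, the smallest that 4 against 5 mice allow). Notch1 in this class thus changed direction with the subtraction.

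Notch2 in microglia- or macrophage-gated cells was at 30.4 CPM in the controls and 35.3 CPM in the tumors on average, and after subtraction at 79.4 and 37.0 CPM, with overlap between the groups (n = 4 and 5, exact two-sided permutation p = 0.0476, not adjusted over the 10 members), so the direction of the means turned. Hes1 was at 19.5, 6.38, 25.6 and 9.51 CPM in the controls and 8.15, 38.3, 35.4, 39.5 and 26.0 CPM in the tumors (log2 fold change 1.56 ± 0.51 (SE), edgeR adjusted p = 0.0285), a call lost without control 2, control 4 or tumor 2 (adjusted p = 0.0915, 0.0809 and 0.0578). After subtraction the means were 19.4 ± 20.6 CPM (SD, n = 4) and 25.8 ± 16.8 CPM (SD, n = 5), which overlapped (exact two-sided permutation p = 0.476).

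In astrocyte-gated cells 0 of 4 members tested passed (edgeR, background 32.6% of all genes, 16.6% higher and 16.0% lower; 2 members had an unadjusted p under 0.05, and DESeq2 called 0). Notch1 was at 105, 141, 219, 179 and 122 CPM in the tumors, all above the controls at 94.9 to 97.7 CPM (log2 fold change 0.68 ± 0.26 (SE), edgeR adjusted p = 0.0539). Control 3, the highest of the controls, had 37 UMIs of Notch1, so counting error in the controls exceeds their spread. The difference turned after subtraction to 243 ± 19.7 CPM (SD, n = 4) in controls and 167 ± 62.2 CPM (SD, n = 5) in tumors (exact two-sided permutation p = 0.0794). Hes5 was at 180.0 ± 52.4 CPM (SD, n = 4) in the controls and 122 ± 96.5 CPM (SD, n = 5) in the tumors (log2 fold change -0.44 ± 0.45 (SE), edgeR adjusted p = 0.485). Its mean was lower in tumors on both scales, with differences (tumor minus control) of -58.0 CPM as measured and -271 CPM after subtraction (exact two-sided permutation p = 0.0476, over 10 members in this class, not adjusted), and the groups overlapped on both.

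In endothelial-gated cells, with at least 25 cells per mouse (an alternative added because only 1 control had 30), 0 of 6 members tested passed (edgeR, background 26.2% of all genes, 12.8% higher and 13.4% lower; 1 member had an unadjusted p under 0.05, and DESeq2 called 0). Notch1 was at 181, 151, 198 and 137 CPM in the controls and 135, 115, 189, 159 and 131 CPM in the tumors, which overlapped (log2 fold change -0.08 ± 0.22 (SE), edgeR adjusted p = 0.891). After subtraction it was at 573, 381, 366 and 526 CPM and 165, 107, 199, 149 and 135 CPM, without overlap (exact two-sided permutation p = 0.0159). Notch3 was at 41.8, 48.1, 68.3 and 39.0 CPM in the controls, above every tumor (log2 fold change -1.74 ± 0.64 (SE), edgeR adjusted p = 0.0607), and the mural list in these cells summed to 2368 to 3090 CPM in the controls against 35.3 to 2084 CPM in the tumors, a part that was not tested. After subtraction Notch3 had means of 135 CPM in the controls and 17.0 CPM in the tumors, in the same direction. Controls 1 to 4 had 28, 31, 27 and 28 endothelial-gated cells, with 71835 to 153733 UMIs of all genes per mouse. Their Notch1 and Notch3 values thus rest on few UMIs, which the subtraction and division scale up. A test of whether the tumor-control difference itself differed between astrocyte- and endothelial-gated cells called 0 of 7 members with edgeR (background 0.366% of all genes, 0.249% higher and 0.118% lower; 2 members had an unadjusted p under 0.05, and DESeq2 called 0). That fit had no mouse term, so it took both classes of a mouse as independent.

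Neuron-gated cells are given only as measured, since the neuron list that sets the share of free RNA also marks them and the share came out at 100% in every mouse. In these cells 3 of 10 members were higher in tumors (background 16.7% of all genes, 8.27% higher and 8.41% lower). Notch1 was at 4.88, 5.61, 4.87 and 4.77 CPM in controls 1 to 4 and 10.3, 42.6, 18.7 and 65.3 CPM in tumors 1, 2, 3 and 5 (log2 fold change 2.43 ± 0.44 (SE), edgeR adjusted p = 0.00371). Notch2 and Jag1 (log2 fold changes 1.64 and 1.56) passed less firmly: the Notch2 call was lost without any 1 of the 4 controls (adjusted p = 0.061 to 0.0695), and both calls were lost without tumor 3 (adjusted p = 0.0801 and 0.0638) or tumor 5 (adjusted p = 0.0802 and 0.0612). Both were also lost with a replicate block (log2 fold changes 1.22 and 1.20, edgeR adjusted p = 0.241 and 0.239). Jag1 had a value in 10 alternative runs, against 16 for Notch1. Neural progenitor markers in the neuron-gated cells summed to 247 to 258 CPM in the controls and 323 to 986 CPM in the tumors, and their part in these differences was not tested. Erythroid-gated control cells had 2 members higher (background 23.9% of all genes, 9.57% higher and 14.4% lower), Notch1 from 3, 5, 8 and 1 UMIs and Notch3 from 0, 3, 6 and 2 UMIs in controls 1 to 4, and without control 3 both calls were lost (adjusted p = 0.408 and 0.19). Between tumors and controls 0 members passed the filter on low counts in erythroid-gated cells (background 25.6% of all genes, 13.6% higher and 11.9% lower) and in oligodendrocyte-gated cells (background 26.6% of all genes, 12.2% higher and 14.4% lower).

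**Figure D5:**
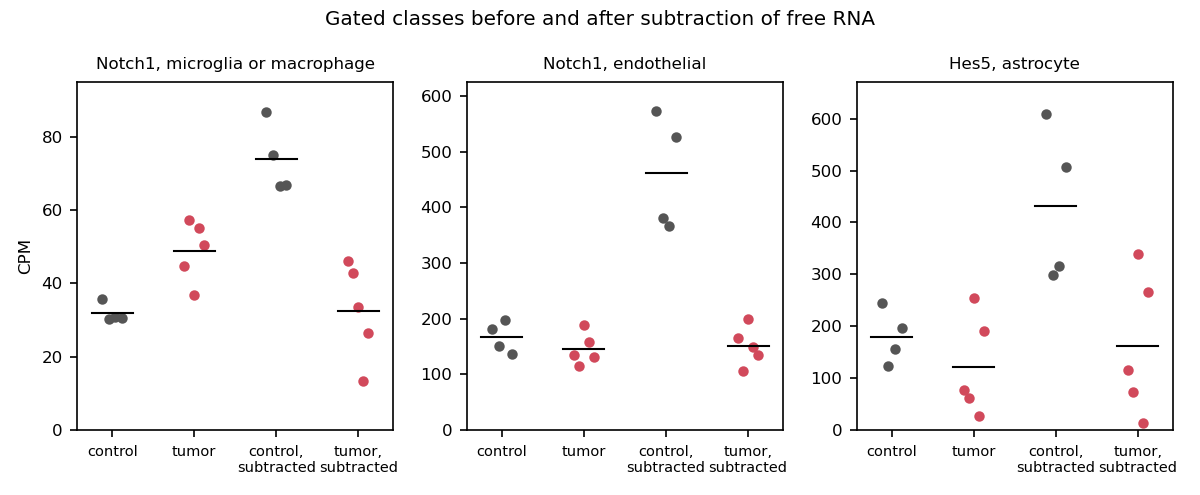
Notch1 in microglia- or macrophage-gated and endothelial-gated cells and Hes5 in astrocyte-gated cells (CPM, axes from 0), as measured and after subtraction of free RNA, with 1 point per mouse (4 controls in grey, 5 tumors in red) and lines at the means. Subtracted values were also divided by the share of UMIs not put down to free RNA. For Notch1 in microglia or macrophages the tumors lie above the controls as measured and below them after subtraction.

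Another 44 genes of the pathway were followed as a list. Over all kept cells, 21 were higher in tumors, 5 were lower and 18 did not pass, where 32.4% of all genes were higher and 29.5% lower. Those higher included the endothelial ligand Dll4 (log2 fold change 5.41), the fringe glycosyltransferases Lfng and Mfng, which modify Notch receptors (4.79 and 3.69), and the endothelial receptor Notch4 (3.45). Fbxw7, which marks the Notch intracellular domain for breakdown, and the neuronal ligand Dner were lower (-1.88 and -1.70). In tumors, endothelial-gated cells had 8 of 41 tested genes higher and 6 lower than the other gated cells, near the 16.8% and 17.2% over all genes, those higher including the receptor Notch4 (3.44) and the ligands Jag2 and Dll4 (4.33 and 3.48). Mural-gated cells had 5 of 42 higher and 4 lower, near the 7.95% and 8.16% over all genes, led by the Hey family member Heyl (5.89).

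Progenitor-gated cells had 6 of 43 list genes higher and 15 lower than the other gated cells, where 16.2% of all genes were higher and 23.1% lower. Lfng, Nrarp and Hes6 were higher (1.55, 0.89 and 1.26), as was Dlk1, which belongs to the marker list that chose the cells and is no finding. Microglia- or macrophage-gated cells had 17 of 42 higher and 11 lower, where 23.8% of all genes were higher and 28.3% lower, those higher including the metalloproteases Adam10 and Adam17 (1.50 and 2.28) and the γ-secretase subunit genes Ncstn and Aph1c (0.92 and 2.20). In cycling progenitor-gated cells 2 of 41 were higher and 5 lower, where 13.9% of all genes were higher and 11.3% lower, Nrarp being higher (0.85) in the cells in which Hes5 was lower.

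Finally, the genes with the most similar pattern were found by Pearson correlation of mean log2(CPM + 10) over 18 class and condition profiles, as a description with no test, the profiles sharing libraries and free RNA. For Notch1 they were Nrarp (r = 0.88), Rab13 (r = 0.88) and Lrrc8a (r = 0.87), and Nrarp was also the first gene for Jag1 (r = 0.91). For Notch3 they were Casq2 (r = 0.97), Atp13a5 (r = 0.97) and Ano1 (r = 0.97). For Hes5 they were Egfr (r = 0.92), Elovl2 (r = 0.90) and Lhx2 (r = 0.88), and for Hes1 Smad6 (r = 0.89), Zfp979 (r = 0.89) and Ece1 (r = 0.88). For Hey2 they were Itga7 (r = 0.88), Pth1r (r = 0.88) and Cped1 (r = 0.87).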

How the data were processed

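Transcripts of brain cells from 5 tumor mice and 4 control mice were counted per barcode. The authors deposited raw UMI counts, 1 matrix per mouse, aligned to mm10 with added sequences for the fusion, luciferase, an IRES and the reporter. The submitters' processing notes name Cell Ranger 7 and Scanpy 1.8.2, and the matrix headers name Cell Ranger 6.1.2. Each control and tumor library is 1 mouse, and 0 other columns of per-sample values were present. Replicates differed beyond counting noise.

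Per library, reading was limited to the top 10000 barcodes by UMIs, and a barcode needed 200 to 6000 genes. Barcodes in the high mitochondrial component of a 2-component mixture (scikit-learn 1.9.0) were removed, as were the highest Scrublet scores (scanpy 1.11.5), at 0.8% per 1000 kept barcodes. The smallest 3000 barcodes stood for free RNA. The smallest barcode of each library held 468 to 517 UMIs, so these 3000 were not shown to be free of cells. Their median was 691, 1068, 1077 and 1338 UMIs in controls 1 to 4 and 559 to 649 UMIs in the tumors. Tumor 3 had 9001 barcodes, all of them read, so its smallest 3000 were also candidates for cells. A cell entered the class whose marker list it exceeded most, among 16 lists. It needed UMIs of at least 3 markers and a -log10 Poisson probability of at least 4 against free RNA. The free RNA level of a list was the lower of the library's own and the mean over all libraries. In control 4 the deposited gene and barcode lists were shorter than its matrix. Its gene rows were checked against those of the other libraries, and its barcodes were left out of the count of shared barcodes. UMIs were summed per mouse and class and tested with edgeR 4.0.16 (R 4.3.3, quasi-likelihood, TMM, filterByExpr, Benjamini-Hochberg over all genes tested, threshold 0.05), with the mouse as a block where classes were compared. The exception was the interaction of astrocyte- and endothelial-gated cells, which had no mouse term. Exact permutation tests over mice were two-sided (Python 3.11.15, scipy 1.17.1). Poisson intervals have a level of 95%, a count of 0 allows 3 counts, and both cover counting error only. Scripts were tested on simulated data. Alternatives were DESeq2 1.42.0, no filter on low counts, a replicate block (or none), at least 500 genes, a mitochondrial share under 10%, no doublets removed, at least 4 markers, thinning to 1000 UMIs, and each mouse left out. The cutoff of 25 endothelial-gated cells, the gate against a library's own free RNA, the split of the progenitor lists and the subtraction of free RNA, with division by the share left, were added after seeing the data. The genes named are the 10 members, pathway genes past the threshold and the 3 most similar genes of a member. Members and lists were chosen with earlier results of these data known. The value of 1 gene of the pathway list is not reported here.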

Additional observations from a re-analysis of the deposited data

Results flagged for a closer look

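Of 140 groups of 4 or 5 mice tested, 26 had 1 mouse far from the others by Dixon's ratio. Chance flags about 5% of groups, or 7 here, and groups of genes and cells are not independent. The values were as follows, with no explanation weighed.

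Tumor 3 held many of them. It was highest for Notch3 in mural-gated cells (761 CPM, 158 UMIs), Hey2 in mural-gated cells (149 CPM), Hey1 in endothelial-gated cells (133 CPM), Dll3 in oligodendrocyte precursor-gated cells (199 CPM) and Dll3 in progenitor-gated cells (70.3 CPM). Hey2 in its oligodendrocyte precursor-gated cells was at 37.6 CPM from 10 UMIs, and Dll3 in its mural-gated cells at 4.81 CPM from 1 UMI. Over all its kept cells, Notch2 was at 49.6 CPM, Notch3 at 26.0 CPM and Hey2 at 14.4 CPM, each the highest tumor.

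Tumor 4 was highest for Hey1 in 3 classes, with 40.9 CPM in progenitor-gated cells (1080 UMIs), 96.8 CPM in astrocyte-gated cells (26 UMIs) and 46.3 CPM in oligodendrocyte-gated cells (50 UMIs). Tumor 5 was highest for Hes5 in endothelial-gated cells (53.9 CPM) and mural-gated cells (99.9 CPM), for Hey2 in endothelial-gated cells (14.4 CPM, 8 UMIs) and for Dll1 in astrocyte-gated cells (3.78 CPM, 3 UMIs). Jag1 in progenitor-gated cells of tumor 1 was at 37.2 CPM from 9 UMIs. Notch2 in oligodendrocyte precursor-gated cells of tumor 2 was the lowest, at 3.12 CPM from 1 UMI.

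Among the controls the gaps were small in size. Notch1 was highest in astrocyte-gated cells of control 3 (97.7 CPM), in microglia- or macrophage-gated cells of control 1 (35.8 CPM) and in neuron-gated cells of control 2 (5.61 CPM). Control 2 was also highest for Notch3 in neuron-gated cells (1.91 CPM), for Notch3 in oligodendrocyte-gated cells (5.67 CPM, 2 UMIs) and for Hey2 in microglia- or macrophage-gated cells (4.78 CPM, 3 UMIs). Hey2 over all kept cells of control 1 was the lowest, at 2.47 CPM.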

How the results depend on the processing

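The counts of members called over all kept cells stayed at 9 without any 1 mouse. Counts moved as follows. Between tumors and controls, astrocyte-gated cells had 1 call, not 0, with no filter on low counts, with no doublets removed or with the gate against own free RNA. Oligodendrocyte-gated cells had 1, not 0, with no filter or a mitochondrial share under 10%, neuron-gated cells 1, not 3, with a replicate block or that mitochondrial limit, and endothelial-gated cells 2, not 0, with no filter or a replicate block and 1 with the stricter gate. In tumors, without the replicate block progenitor-gated cells had 1 call, endothelial-gated cells 3, astrocyte-gated cells 1, oligodendrocyte precursor-gated cells 1, oligodendrocyte-gated cells 2 and cycling against non-cycling cells 0; DESeq2 gave the last 1. The neural progenitor list alone, in tumors 2 to 5, gave 1 call against other gated cells that included the Igf2 and H19 list. In that fit Hes1 turned to a log2 fold change of -0.0475. The gate against own free RNA gave astrocyte-gated cells 7, and the mitochondrial limit gave neuron-gated cells 5. Erythroid-gated control cells had 1 call, not 2, with DESeq2 and 0 with the mitochondrial limit. The cause was not tested.

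Without single mice, the counts ranged between tumors and controls from 0 to 1 in astrocyte-gated cells, 1 to 2 in microglia or macrophages, 0 to 0 in oligodendrocytes and erythroid cells, 1 to 3 in neurons, 0 to 1 in endothelial cells and 0 to 0 in the interaction. Against other gated cells of tumors they ranged from 3 to 5 (progenitor), 4 to 6 (endothelial), 3 to 6 (mural), 3 to 5 (astrocyte), 1 to 3 (oligodendrocyte precursor), 3 to 8 (oligodendrocyte), 6 to 9 (microglia or macrophage) and 5 to 8 (neuron) and 0 to 0 (erythroid), in controls from 5 to 7 (astrocyte), 2 to 2 (microglia or macrophage), 0 to 0 (oligodendrocyte), 6 to 9 (neuron) and 0 to 2 (erythroid), and in cycling cells from 1 to 4. The co-detection difference ranged from -0.543 (without tumor 2) to 0.624 percentage points and was -0.743 with thinning to 1000 UMIs, over tumors 2, 4 and 5 alone, since tumor 3 then had only 26 cells with a Hes UMI. Over those 3 tumors it was 0.441 at 2000 UMIs. For single members, 915 values kept direction and call, 137 kept direction and lost the call, and 1 turned.

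The labels do not say that replicate numbers shared by tumors and controls pair the mice. The correlations of same-numbered mice were 0.056, 0.022, -0.004 and 0.042. Over all pairs of a control and a tumor they ranged from -0.081 to 0.056, the highest being control 1 with tumor 1. Such values cannot decide whether same-numbered mice shared a preparation, which was not tested. With numbers as a replicate block over all kept cells, the Dll1 call was lost (log2 fold change 1.23, adjusted p = 0.078). Depth limits the rare classes: several members rest on under 10 UMIs per mouse.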

Other observations

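Neuroblast-gated cells, marked by Dlx genes and Dcx, entered no comparison because 2 tumors had at least 30 of them (68 in tumor 3 and 582 in tumor 5). Notch1 was at 68.1 and 96.1 CPM in these, Dll1 at 28.9 and 24.1 CPM and Hes5 at 68.1 and 78.6 CPM. Dll3 was at 90.8 CPM in tumor 3 and 8.41 CPM in tumor 5. Hes1 was at 6.19 and 17.2 CPM, and Hey1 at 0 and 3.29 CPM. No test was made.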
